A study of Mus musculus with 22 samples.

Results

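Cytosolic ribosomal proteins are the protein components of the ribosome that translates nuclear messages. All rows of the count table named Rpl or Rps followed by a digit, together with Rplp0, Rplp1, Rplp2 and Rpsa, were taken. Rps6k kinases, names with -ps and genes with a mean under 5 CPM (gene counts scaled to library size) over the libraries were left out. Of 103 rows that fitted the names, 10 were Rps6k kinases, 6 carried -ps and 8 were under the minimum. The 79 genes that remained, of 24061 in the table, all passed the low-count filter. They comprise 40 large-subunit proteins, 30 small-subunit proteins, the 3 stalk proteins, 5 paralogs (Rpl22l1, Rpl36al, Rps27l, Rpl7l1 and Rps4l) and Rps19bp1, which shares the name stem but is a binding partner of Rps19 and not a ribosomal protein.

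Messenger RNA of the nucleus accumbens, a ventral striatal region of the reward circuit, was counted in 22 bulk libraries from male C57BL/6J mice 7 to 9 weeks old. Antibiotics that are not absorbed from the gut depleted the microbiome of the mice called Abx, while those called H2O kept a normal microbiome. Mice of each kind received morphine at 20 mg/kg per day for 7 days or saline. The groups held 5 libraries of Abx_Morphine, 6 of Abx_Saline, 5 of H2O_Morphine and 6 of H2O_Saline. No allele, transgene or pooling is given in the labels. They do not state that libraries come from separate animals, and the p-values rest on the spread between libraries, which may be technical.

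A ribosome holds a single copy of nearly every one of these proteins, and their messages are made in step with one another. In mammals the transcripts start with a cytosine and a run of pyrimidines, the 5' terminal oligopyrimidine (TOP) motif, through which mTORC1 and the RNA-binding protein Larp1 set their translation. The small subunit reads the message and the large subunit joins amino acids. In neurons ribosomes work in cell bodies, dendrites and axons, where local translation takes part in plasticity.

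A pyrimidine run near the annotated start is a sequence feature that the choice by name did not use. It was found in 30 of 69 member promoters. The run may start up to 20 bases from the annotated start, so it need not be the TOP motif itself. Below, windows of 8 members, from 40 bases before to 20 bases after the annotated start, show it in capitals where it was found. The first 5 are members of both subunits and of the stalk, Rpl22l1 is a paralog with a run, and Rpl7l1 and Rps19bp1 show windows without it. The 8 were picked as examples. Members of the subunits and the stalk without a run, such as Rpl37, Rps28 and Rplp0, are not shown. Sequences are from RefSeq (GRCm38.p6), 5' to 3' on the gene's strand.
Rpl28: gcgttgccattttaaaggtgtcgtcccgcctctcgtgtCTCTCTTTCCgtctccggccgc
Rpl38: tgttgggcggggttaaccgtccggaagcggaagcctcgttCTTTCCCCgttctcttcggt
Rpl14: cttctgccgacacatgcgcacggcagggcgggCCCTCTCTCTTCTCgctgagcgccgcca
Rps6: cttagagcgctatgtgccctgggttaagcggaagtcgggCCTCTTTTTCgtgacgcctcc
Rplp2: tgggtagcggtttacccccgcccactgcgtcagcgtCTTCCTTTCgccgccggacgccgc
Rpl22l1: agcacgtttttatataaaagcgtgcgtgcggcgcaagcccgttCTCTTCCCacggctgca
Rpl7l1: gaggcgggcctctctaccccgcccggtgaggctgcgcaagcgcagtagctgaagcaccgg
Rps19bp1: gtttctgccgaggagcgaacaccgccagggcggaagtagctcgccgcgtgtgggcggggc
These lie at chr7:4792925-4792984 (plus strand), chr11:114668540-114668599 (plus), chr9:120571477-120571536 (plus), chr4:86857348-86857407 (minus), chr7:141447611-141447670 (plus), chr3:28805468-28805527 (plus), chr17:46782637-46782696 (minus) and chr15:80264287-80264346 (minus), in the order printed. The letters CGGAAG, a core that ETS-family factors bind, occur in the windows of Rpl38, Rps6 and Rps19bp1, and TATAAA in that of Rpl22l1.

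Of the 79 members 59 had a promoter in the RefSeq table, with 69 promoters in all. A run of C followed by at least 7 pyrimidines on the gene's strand, starting within 20 bases of the annotated start, was present in 30 of these 69 (43.5%), against 14.5% of all 32851 mouse promoters searched. CGGAAG, on either strand of the 300-base promoter, occurred in 60.9% of member promoters and 16.9% of all. AAGATGGC, a core of the YY1 motif, occurred in 10.1% of member promoters and 2.75% of all, and TATAAA in 10.1% of member promoters and 13.6% of all. A start annotated some bases away from the true one moves the window, so a missing run says only that these letters are not there. The 30 members with a run and the 29 without had like changes with morphine, in that the median log2 change was -0.09 and -0.09 in antibiotic mice and -0.13 and -0.13 in water mice.

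Total counts ran from 11789713 to 19755139 per library. The 79 genes took 1.498 ± 0.0434% of gene counts in Abx_Morphine libraries (SD, n = 5; range 1.45 to 1.55%) and 1.59 ± 0.118% in Abx_Saline libraries (SD, n = 6; range 1.44 to 1.75%). They took 1.46 ± 0.0846% in H2O_Morphine libraries (SD, n = 5; 1.32 to 1.55%) and 1.59 ± 0.0773% in H2O_Saline libraries (SD, n = 6; 1.52 to 1.74%). The ranges of morphine and saline libraries overlapped in both kinds of mice, and H2O_Morphine library 4 had the lowest share of the 22. In bulk tissue, fewer cells of a type and less RNA per cell cannot be told apart.

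**Figure D1:**
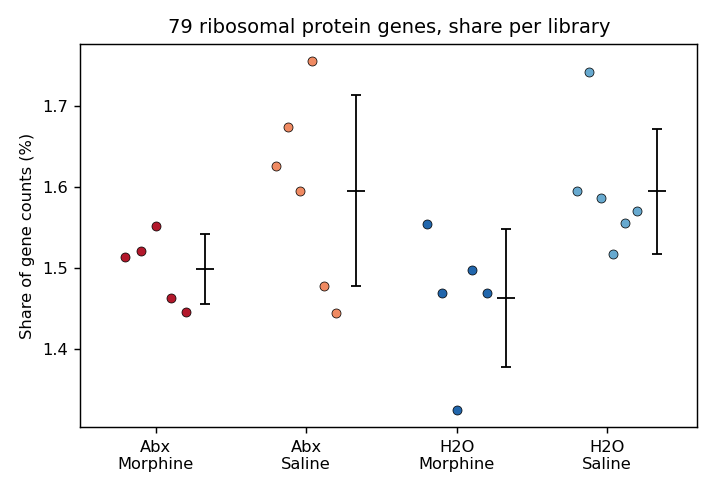
Share of gene counts (%, axis not from 0) held by the 79 ribosomal protein genes in each library (points), with mean and SD at the side (5, 6, 5 and 6 libraries). Morphine libraries lie between 1.32 and 1.55%, saline libraries between 1.44 and 1.75%.

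Levels were set against one another only per transcript length (CPM per kilobase of the annotated RefSeq-linked transcript), for the 78 members with a GENCODE transcript. Rps4l was the member without one. The median was 255 CPM per kilobase, and 70 of the 78 exceeded 100. Rplp1, an acidic protein of the stalk that recruits elongation factors, was highest at 779 CPM per kilobase, followed by the small-subunit protein Rps15 at 626. Rps29, a zinc-binding protein of the small subunit, and the very short large-subunit protein Rpl41 each stood at 499. Rps27l, a paralog of Rps27 that p53 induces, was lowest at 17.6 CPM per kilobase, and Rps19bp1 had 22.5. Among the other paralogs, Rpl7l1 had 38.2 CPM per kilobase against 246 for Rpl7, Rpl36al 69.5 against 177 for Rpl36a, and Rpl22l1 76.7 against 186 for Rpl22. Rps20 stood at 37.5 CPM per kilobase, but its annotated transcript is 3706 bases long and its level per length rests on that.

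These levels count reads that aligned to a single place. Ribosomal protein genes have many processed pseudogenes, and a median of 60.6% of the 50-base words in a member's transcripts also occur in transcripts of other genes. In 50 of the 78 members the share exceeded 50%. It was 95.1% in Rpl35. For Rps4l, which has no GENCODE transcript, the share was not measured. Of the 8 genes under the minimum, Rps27 had 172 counts in all libraries together and shares 98.6% of its words, Rpl30 had 54 and shares 76.4%, and Rpl26 was at 0 and shares 71.3%. Rpl34 had 153 counts and shares 50.6%, while Rpl3l, the muscle form of Rpl3, had 158 and shares 0%. Rpl39l had 12 and shares 0%. Rpl10l and Rps27rt were at 0 and share 7.60% and 91.1%. Over the 78 members, level per length and the share had a Spearman rho of 0.17. The part of shared sequence in the low counts was not tested. Rps27l (8.80 CPM) and Rps19bp1 (18.9 CPM) were the nearest above the minimum, and Rps27 (0.662 CPM) and Rpl3l (0.611 CPM) the nearest below it. Levels of genes with shared words are uncertain between gene and copy, and changes are of their uniquely aligned reads.

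In mice with a normal microbiome, morphine was accompanied by lower levels of many members and by no higher one. In the edgeR quasi-likelihood test with Benjamini-Hochberg adjustment over all 14564 genes tested, 17 of 79 members fell and 0 rose, against 2.67% of all genes tested called lower and 3.91% called higher. Of 572 genes whose longest coding transcript is under 1000 bases, 44 of them members, 15.2% were called lower, beside 21.5% of the members. Without the members, 77 of 528 such genes were called lower. The 0 higher calls also held in DESeq2 and limma-voom, where 31 and 19 members fell. The median log2 change was -0.14 over the members and 0.00 over all genes tested, 77 of 79 values were below 0, and 55 had an unadjusted p under 0.05. Of the called genes 9 belonged to the large subunit and 8 to the small one. The 3 stalk proteins, the 5 paralogs and Rps19bp1 held none.

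Rpl28, a large-subunit protein that budding yeast lacks, had the smallest p. Its level was 124, 128, 124, 132 and 128 CPM in H2O_Morphine libraries, and in H2O_Saline libraries 142 at lowest, 148 at the median and 156 at highest. No morphine library reached the lowest saline one. The log2 change was -0.22 ± 0.0385 (SE; adjusted p = 0.00262).

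Rps20, of the head of the small subunit, had 134, 134, 119, 131 and 122 CPM in H2O_Morphine libraries, against a low of 144, a median of 149 and a high of 157 CPM in H2O_Saline libraries. Its groups did not overlap either, and the log2 change was -0.23 ± 0.0519 (adjusted p = 0.0115). Rps14, on the platform of the small subunit and lost in the human 5q deletion syndrome, had 239, 233, 210, 214 and 231 CPM in H2O_Morphine libraries, against 244, 257 and 281 CPM as lowest, median and highest in H2O_Saline libraries. The groups were apart, with a log2 change of -0.20 ± 0.0466 (adjusted p = 0.0116).

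Rpl31 had the largest fall of the large subunit, with 228, 219, 199, 226 and 224 CPM in H2O_Morphine libraries and 238 to 287 CPM in H2O_Saline libraries (log2 change -0.24 ± 0.0564, adjusted p = 0.0136). Rpl38, which in mice is needed for patterning of the axial skeleton, had 102, 103, 93.5, 102 and 96.5 CPM in H2O_Morphine libraries and between 112 and 116 CPM in H2O_Saline libraries, a narrow range (log2 change -0.19 ± 0.0452, adjusted p = 0.0144). Both genes stood lower in every morphine library than in any saline one.

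Rps15, another protein of the small-subunit head, had 298, 293, 259, 282 and 299 CPM in H2O_Morphine libraries, against 312, 322 and 351 CPM as lowest, median and highest in H2O_Saline libraries (log2 change -0.19 ± 0.0473, adjusted p = 0.0217). Every morphine library was below every saline one.

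Rpl29, another large-subunit protein, had 103, 121, 107, 118 and 115 CPM in H2O_Morphine libraries, and 126 at lowest, 131 at the median and 141 at highest in H2O_Saline libraries (log2 change -0.22 ± 0.063, adjusted p = 0.0361). Its groups did not overlap. Rps29 had 204, 189, 160, 179 and 179 CPM in H2O_Morphine libraries, against 202, 205 and 230 CPM in H2O_Saline libraries (log2 change -0.20 ± 0.058, adjusted p = 0.037). The highest morphine library lay just inside the saline range.

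Rpl13, Rpl14, Rpl24, Rps2, Rps19, Rps28 and Rpl23a also fell, with log2 changes between -0.22 and -0.16. Rps19 is the gene first found mutated in Diamond-Blackfan anaemia, and Rps2 lines the channel through which the message enters. Rpl23a, at the exit of the peptide tunnel, was the nearest to the threshold (adjusted p = 0.0491), with 160, 156, 132, 152 and 155 CPM in H2O_Morphine libraries and 160, 167 and 181 CPM as lowest, median and highest in H2O_Saline libraries. In 17 members all H2O_Morphine libraries lay below all H2O_Saline ones, against 2.73% of all genes tested; 12 of these 17 were among the called genes. The other 5 included Rpl19, Rpl4, Rps16 and Rps6. Rps6, the protein whose tail S6 kinases phosphorylate, had 157, 155, 137, 149 and 151 CPM in H2O_Morphine libraries against 159, 164 and 178 CPM as lowest, median and highest in H2O_Saline libraries, at an adjusted p of 0.0684.

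Rps15a and Rps27l were the only members with a change above 0 in this comparison. Rps15a, of the small subunit, had 171, 152, 153, 154 and 163 CPM in H2O_Morphine libraries and 136, 153 and 167 CPM as lowest, median and highest in H2O_Saline libraries (log2 change 0.08 ± 0.0553, adjusted p = 0.438). Rps27l had 8.94, 8.15, 8.21, 9.13 and 8.20 CPM in H2O_Morphine libraries and 7.37 to 9.89 in H2O_Saline libraries (log2 change 0.03 ± 0.0993, adjusted p = 0.895). Both pairs of groups overlapped.

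The number of calls depended on single libraries. Without H2O_Saline library 3, 4, 5, 8 or 9 it was 9, 6, 10, 9 or 11, and without H2O_Morphine library 4 or 6 it was 7 or 8.

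**Figure D2:**
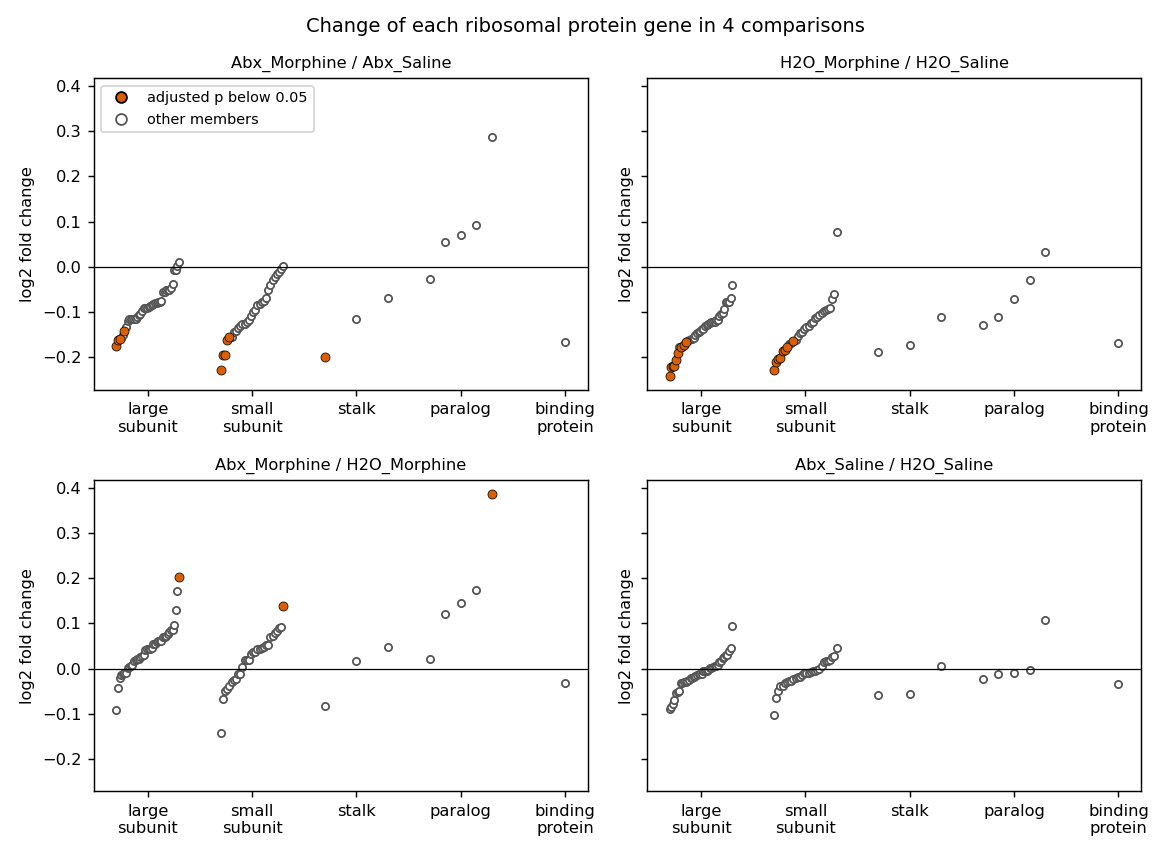
Log2 fold change (vertical axis, no unit) of each of 79 members in 4 comparisons, grouped by role; filled points have an edgeR adjusted p below 0.05. Filled points number 10, 17, 3 and 0, reading the panels left to right from the top.

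In mice whose microbiome was depleted, morphine was accompanied by a similar pattern with fewer calls. Of 79 members 10 fell and 0 rose (edgeR quasi-likelihood test with the same adjustment), against 6.62% of all genes tested called lower and 6.43% called higher; DESeq2 and limma-voom gave 14 and 10 lower and 0 higher. Of the 572 genes with a longest coding transcript under 1000 bases, 44 of them members, 17.5% were called lower, beside 12.7% of the members. Without the members, 92 of 528 such genes were called lower. The median log2 change was -0.09 over the members and 0.00 over all genes tested, and 72 of 79 values were below 0. Of the called genes 4 belonged to the large subunit (Rpl28, Rpl37, Rpl38 and Rpl41), 5 to the small one (Rps28, Rps29 and Rpsa among them) and 1 to the stalk (Rplp1). Of the 5 paralogs 4 had values above 0, none of them past the threshold.

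Rpl28 again had the smallest p, with 126, 132, 129, 127 and 119 CPM in Abx_Morphine libraries and 131, 142 and 147 CPM as lowest, median and highest in Abx_Saline libraries. A single morphine library reached into the saline range, and the log2 change was -0.16 ± 0.0385 (adjusted p = 0.00885). Rps29 had 170, 184, 182, 175 and 168 CPM in Abx_Morphine libraries, against 178, 212 and 222 CPM in Abx_Saline libraries. This was the largest fall of the 79, at a log2 change of -0.23 ± 0.058 (adjusted p = 0.0124).

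Rps28, a small-subunit protein near the exit of the message, had 74.0, 75.9, 71.6, 72.4 and 71.5 CPM in Abx_Morphine libraries, against 75.9, 83.1 and 93.5 CPM as lowest, median and highest in Abx_Saline libraries. The top of the morphine libraries touched the bottom of the saline ones (log2 change -0.19 ± 0.0498, adjusted p = 0.013). Rplp1 had 347, 367, 352, 344 and 345 CPM in Abx_Morphine libraries and 356 to 431 CPM in Abx_Saline libraries (log2 change -0.20 ± 0.0635, adjusted p = 0.0395). Rpsa, also known as a laminin receptor, had 438, 471, 432, 428 and 439 CPM in Abx_Morphine libraries and 452 to 534 CPM in Abx_Saline libraries (log2 change -0.19 ± 0.0613, adjusted p = 0.0372). In Rplp1 and Rpsa 1 morphine library entered the saline range.

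Rps4l had the highest change, with Abx_Morphine libraries at 18.7 to 32.2 CPM and 18.2, 20.8 and 23.9 CPM as lowest, median and highest in Abx_Saline libraries (log2 change 0.29 ± 0.12, adjusted p = 0.119). It passed the threshold when Abx_Morphine library 5 was left out (log2 change 0.38, adjusted p = 0.0349). Rpl7l1 had 50.7 to 54.6 CPM in Abx_Morphine libraries and 45.6 to 53.3 CPM in Abx_Saline libraries (log2 change 0.09 ± 0.0483, adjusted p = 0.214). Rpl29 had 146, 132, 121, 122 and 114 CPM in Abx_Morphine libraries and 116, 132 and 143 CPM in Abx_Saline libraries (log2 change -0.05 ± 0.0628, adjusted p = 0.655). In all 3 the groups overlapped.

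Rpl37, Rpl38 and Rpl41 also fell with log2 changes between -0.18 and -0.14. In 1 member all Abx_Morphine libraries lay below all Abx_Saline ones, against 3.17% of all genes tested; it was the large-subunit gene Rpl27, which did not pass. Abx_Saline libraries 5 and 6 held the lowest member shares of their group. Of the called genes 4 were called in both kinds of mice (Rpl28, Rpl38, Rps28 and Rps29), 4 of the 10 calls in antibiotic mice and 4 of the 17 in water mice. The count was 3, 3, 6 or 3 without Abx_Saline library 1, 2, 3 or 4, and 4, 5, 3 or 4 without Abx_Morphine library 1, 3, 4 or 5.

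**Figure D3:**
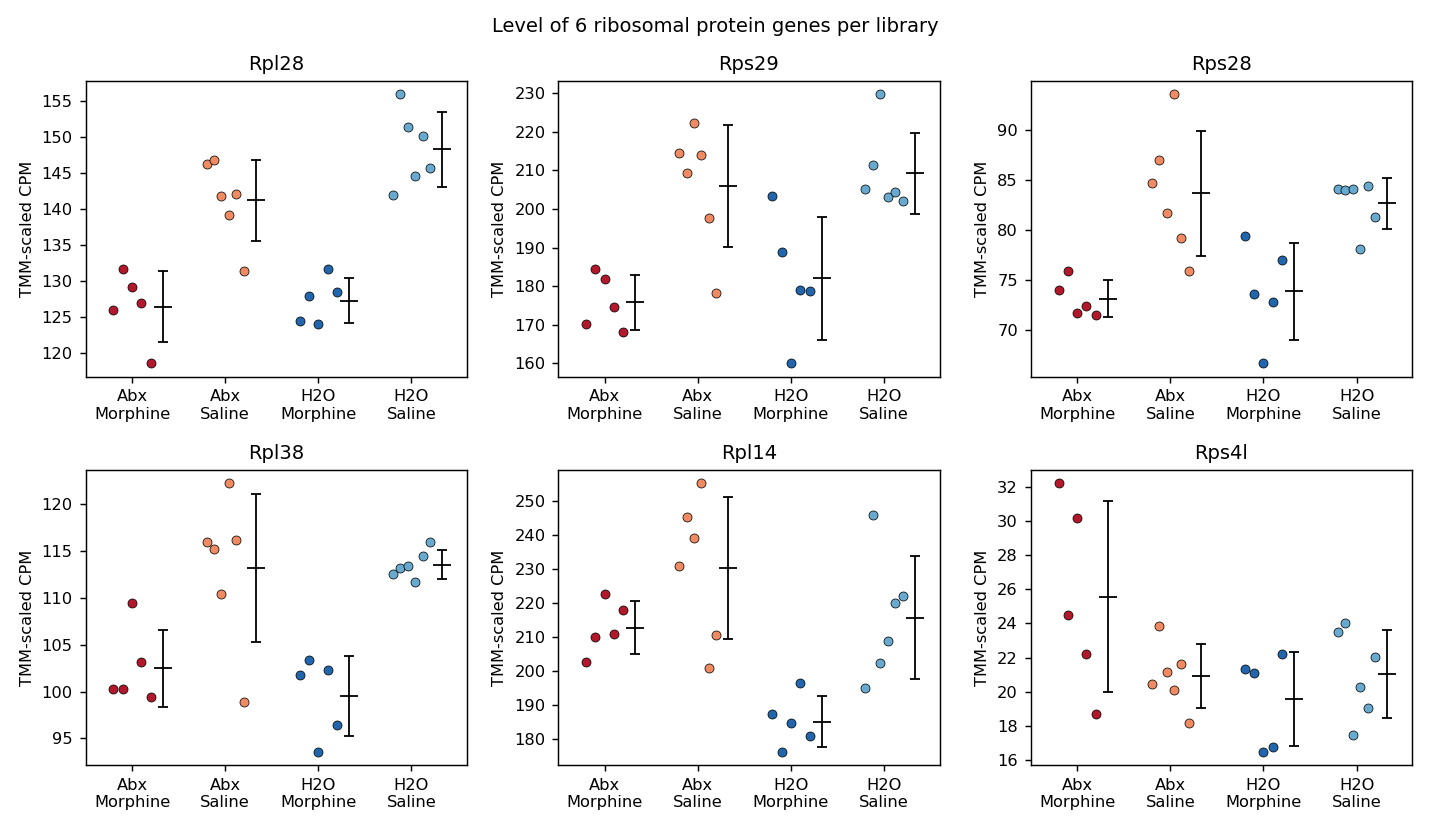
TMM-scaled CPM (axes not from 0) of 6 members in each library (points), with mean and SD at the side for 5, 6, 5 and 6 libraries. Rpl28 averages 126 and 127 CPM in both morphine groups against 141 and 148 CPM in both saline groups, while Rps4l is highest in Abx_Morphine libraries at 25.6 CPM.

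The difference between both morphine changes was tested as an interaction. No member passed (0 of 79 in edgeR, DESeq2 and limma-voom, with 1 at an unadjusted p under 0.05 in edgeR), against 0.467% of all genes tested called in either direction. The median difference, antibiotic minus water mice, was 0.04, with a median near 0 (-0.01) over all genes. Rps4l, a paralog of the X-linked Rps4x, was the member at an unadjusted p under 0.05, with a difference of 0.40 ± 0.171 (adjusted p = 0.334). How much sequence Rps4l shares with Rps4x or other genes was not measured. For Rpl29 the difference was 0.17 ± 0.0888 (adjusted p = 0.443), and for Rpl28 0.06 ± 0.0544 (adjusted p = 0.7).

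No change of a member was called with depletion of the microbiome alone. Of 79 members 0 passed between Abx_Saline and H2O_Saline libraries in edgeR, DESeq2 or limma-voom, and 0 had an unadjusted p under 0.05 in edgeR, against 1.41% of all genes tested called in either direction. The median log2 change was -0.01, with values from -0.10 (Rpsa) to 0.11 (Rps27l), and the median SE was 0.0512. The normal 95% intervals of the 79 changes lay within -0.24 and 0.29. In 0 members were the groups apart, against 1.01% of all genes tested below and 0.632% above.

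Rpsa had 452, 526 and 534 CPM as lowest, median and highest in Abx_Saline libraries and 503, 539 and 601 in H2O_Saline libraries (log2 change -0.10, 95% interval -0.22 to 0.01). Rpl28 and Rpl23a had the smallest p of the lower members, at log2 changes of -0.07 (95% interval -0.14 to 0.00) and -0.09 (-0.18 to 0.00). Rpl14, a large-subunit protein, had 201, 235 and 255 CPM in Abx_Saline libraries and 195, 215 and 246 in H2O_Saline libraries (log2 change 0.09 ± 0.0573, adjusted p = 0.409). Rpl7a, of the large subunit, had 271, 286 and 309 CPM in Abx_Saline libraries and 264, 276 and 302 CPM in H2O_Saline libraries (log2 change 0.04 ± 0.0408). The groups overlapped in each of these.

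Between both groups given morphine, 3 of 79 members were higher in Abx_Morphine libraries and 0 lower (edgeR, DESeq2 and limma-voom alike), against 8.42% of all genes tested called higher and 9.58% called lower. Rpl14 had 203, 210, 223, 211 and 218 CPM in Abx_Morphine libraries, against 187, 176, 185, 196 and 181 CPM in H2O_Morphine libraries, with no overlap (log2 change 0.20 ± 0.0628, adjusted p = 0.0279). Rps14 had 267, 246, 244, 240 and 242 CPM in Abx_Morphine libraries, and its lowest exceeded the highest H2O_Morphine library (log2 change 0.14 ± 0.0485, adjusted p = 0.0497). Its call was lost with TMM computed without the members (edgeR adjusted p = 0.0525), without the low-count filter (0.0862), with only the 2 groups in the fit (0.084) and with the replicate block (0.151). When a library was left out, the edgeR adjusted p of Rps14 ran from 0.0406 to 0.15, and its call held in only 5 of the 22 fits. The call of Rpl14 was lost with the block (0.0687), and its edgeR adjusted p ran from 0.0162 to 0.0699 when a library was left out. Rps4l had 32.2, 24.5, 30.2, 22.2 and 18.7 CPM in Abx_Morphine libraries, against 21.4, 21.1, 16.5, 16.7 and 22.2 CPM in H2O_Morphine libraries, and these overlapped (log2 change 0.39 ± 0.125, adjusted p = 0.0347). Its call was lost with only the 2 groups in the fit (0.0938) and with the block (0.0795), and its edgeR adjusted p ran from 0.00679 to 0.122 when a library was left out.

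Rpl7l1, whose protein takes part in making the large subunit, had 53.4, 54.6, 53.6, 50.7 and 51.9 CPM in Abx_Morphine libraries and 50.5, 50.1, 46.1, 49.4 and 47.2 CPM in H2O_Morphine libraries. These did not overlap, yet it did not pass (log2 change 0.12 ± 0.0501, adjusted p = 0.101). Groups were apart in 3 members above and 0 below, against 6.26% and 6.82% of all genes tested. The lowest change was that of Rpsa, at -0.14 ± 0.0638 (adjusted p = 0.123), with 549, 503, 418, 487 and 481 CPM in H2O_Morphine libraries. Rpl27a, of the large subunit, had 144, 156, 163, 151 and 140 CPM in Abx_Morphine libraries and 176, 163, 140, 165 and 161 CPM in H2O_Morphine libraries (log2 change -0.09 ± 0.0651, adjusted p = 0.355). In both genes these groups overlapped. The calls fell to 0 without Abx_Morphine library 3, and to 1 without Abx_Morphine library 1 or without H2O_Morphine library 3, 5 or 6. Across all 4 groups at once 34 of 79 members passed, against 31.8% of all genes tested; Rpl28, Rps29 and Rpl14 had the smallest p.

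Stalk proteins and paralogs were given by group. Rplp0, the base of the stalk, averaged 226, 237, 219 and 236 CPM in Abx_Morphine, Abx_Saline, H2O_Morphine and H2O_Saline libraries, and Rplp2 124, 134, 123 and 140 CPM. Rplp2 had a log2 change with morphine of -0.11 in antibiotic mice and of -0.19 in water mice, where its adjusted p was 0.0526. Rpl22l1, which in mice is held down by its paralog Rpl22, had 46.8, 39.8, 43.0, 37.1 and 44.1 CPM in Abx_Morphine libraries and 32.7, 39.9 and 48.8 CPM as lowest, median and highest in Abx_Saline libraries. It had 44.6, 31.5, 34.9, 34.6 and 41.6 CPM in H2O_Morphine libraries and 36.2, 40.5 and 45.9 CPM in H2O_Saline libraries. The groups overlapped in both kinds of mice, at log2 changes with morphine of 0.06 ± 0.0966 in antibiotic mice and -0.13 ± 0.0971 in water mice. Rpl22 had 0.01 ± 0.0535 and -0.10 ± 0.0536 in the same comparisons, and none of these passed. Rps19bp1 had 18.6, 19.4, 16.5, 16.2 and 16.8 CPM in Abx_Morphine libraries, against 17.8, 19.5 and 21.5 CPM as lowest, median and highest in Abx_Saline libraries (log2 change -0.17 ± 0.0712, adjusted p = 0.127). It had 18.2, 18.5, 16.7, 18.2 and 17.97 CPM in H2O_Morphine libraries, against 18.1, 19.9 and 23.0 CPM in H2O_Saline libraries (log2 change -0.17 ± 0.0708, adjusted p = 0.151). These groups overlapped as well.

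The members varied together between libraries. After group means were removed, the 3081 pairs of members had a median Pearson r of 0.66 in log2 CPM over 22 libraries, and 98.3% of pairs were above 0. Against the mean of the others, Rpl19 was highest at 0.94 and 71 of 79 members exceeded 0.5. Rpl22 was lowest at 0.10, followed by Rps19bp1 at 0.18, Rpl36al at 0.20, Rpl7l1 at 0.26, Rps27l at 0.42 and Rpl29 at 0.47. These values share libraries, depth and scaling. Rps4l and Rpl22l1 had the largest spread inside groups (SD of 0.213 and 0.173 on the log2 scale) and Rpl28 was among the members with the smallest. Among 11625 other genes of at least 5 CPM, those most like the members' mean were Spg21 (r = 0.91), Chmp2a (0.91), Sod1 (0.89), Itm2c (0.88) and Gtl3 (0.86), over the same 22 libraries.

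Levels of the members moved with a trend in transcript length. The length slope of a library is the slope of its centred log2 CPM on log2 transcript length over 13893 genes, and is lower where short transcripts are relatively abundant. It averaged 0.0436 ± 0.0114 in Abx_Morphine libraries (SD, n = 5) and -0.0177 ± 0.0362 in Abx_Saline libraries (SD, n = 6; two-sided exact permutation test, p = 0.013, adjusted p = 0.0693 over 12 tests). It averaged 0.0384 ± 0.0074 in H2O_Morphine libraries (SD, n = 5) and -0.0507 ± 0.0267 in H2O_Saline libraries (SD, n = 6; exact p = 0.00216, adjusted p = 0.026). Abx_Saline library 6 stood apart from its group at 0.0479, inside the morphine range. Reads that did not align uniquely, taken from the same libraries, made up 9.72 ± 0.327% of counts in Abx_Morphine libraries and 10.4 ± 0.46% in Abx_Saline libraries (SD, n = 5 and 6; exact permutation test, p = 0.0325, adjusted p = 0.0779). In water mice they made up 10.2 ± 0.243% in H2O_Morphine libraries and 10.8 ± 0.565% in H2O_Saline libraries (exact p = 0.0173, adjusted p = 0.0693). Reads outside genes made up 10.3 ± 0.508% in H2O_Morphine libraries and 9.55 ± 0.38% in H2O_Saline libraries (exact p = 0.0303, adjusted p = 0.0779). In antibiotic mice they made up 11.3 ± 0.946% in Abx_Morphine libraries and 10.9 ± 2.38% in Abx_Saline libraries (exact p = 0.758). None of these shares passed the adjustment over the 12 tests, and their part in the members' changes was not tested. With group means removed, the slope and the members' mean had r = -0.56 over the 22 libraries.

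Of 572 genes whose longest coding transcript is under 1000 bases, 44 of them members, 17.5% were called lower with morphine in antibiotic mice and 15.2% in water mice, beside 12.7% and 21.5% of the members. Their median log2 change was -0.12 in antibiotic mice and -0.13 in water mice, beside -0.09 and -0.14 in the members. With each library's length slope as a covariate in edgeR, 0 members passed in either morphine comparison (3 at an unadjusted p under 0.05 in antibiotic mice and 1 in water mice). The members' medians were then 0.00 in both, and Rpl28 had a log2 change of -0.07 in antibiotic mice and -0.09 in water mice. The 3 genes higher in Abx_Morphine than in H2O_Morphine libraries stayed past the threshold. In water mice every morphine library had a higher slope than every saline one, so slope and treatment cannot be told apart there. In antibiotic mice only Abx_Saline library 6 (0.0479) reached the range of the Abx_Morphine libraries (0.0255 to 0.055). Slope and treatment can thus hardly be told apart in antibiotic mice either.

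**Figure D4:**
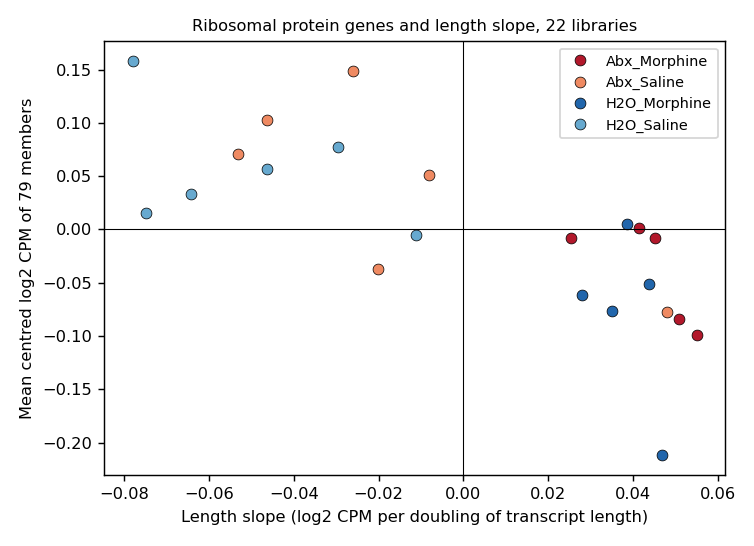
Mean centred log2 CPM of the 79 members (vertical axis) against the length slope (log2 CPM per doubling of transcript length), 1 point per library, coloured by group. All 10 morphine libraries lie right of 0 and 11 of the 12 saline ones left of it.

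Genes that work with the ribosome were described by list. The counts of all lists below stand beside the shares of all genes tested called with morphine. These were 6.62% lower and 6.43% higher in antibiotic mice, and 2.67% lower and 3.91% higher in water mice. Of 3 ribosomal proteins outside the naming rule, 1 fell in antibiotic mice and 2 in water mice, and all 3 had values below 0 in both. Gnb2l1, the scaffold protein Rack1 of the small subunit, fell in antibiotic mice (log2 change -0.17 ± 0.0477, adjusted p = 0.0222). Fau, a ubiquitin-like fusion of the small-subunit protein Rps30, fell in water mice (-0.22 ± 0.0569, adjusted p = 0.0252). Of 10 elongation factors, 4 fell in antibiotic mice and 0 passed in water mice, where 5 had an unadjusted p under 0.05 (edgeR). Eef1g, a subunit of the factor that reloads Eef1a, averaged 237 CPM in Abx_Morphine libraries and 288 CPM in Abx_Saline libraries (log2 change -0.28 ± 0.0603, adjusted p = 0.00398). Eef1a2, the neuronal form of the factor that delivers transfer RNA, averaged 764 and 871 CPM in the same groups (log2 change -0.19 ± 0.0514).

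Of 36 initiation factors, 4 rose and 1 fell in antibiotic mice, and 1 fell in water mice (Eif3k, -0.18 ± 0.0517). Eif2s3x, a subunit of the factor that carries the initiator transfer RNA, averaged 57.7 CPM in Abx_Morphine libraries and 47.7 CPM in Abx_Saline libraries (log2 change 0.28 ± 0.0585, adjusted p = 0.00349). Of 22 other transcripts with a TOP motif, 4 fell and 1 rose in antibiotic mice, and 2 fell in water mice, Fau among them. The median of that list was -0.08 in antibiotic mice and -0.10 in water mice.

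Of 56 ribosome assembly factors, 3 fell and 6 rose in antibiotic mice, with a median of 0.01, and 2 fell and 1 rose in water mice, with a median of -0.02. Gnl2, a nucleolar GTPase of the large subunit, had 0.22 ± 0.0478 in antibiotic mice, and Rrp1, needed for processing of ribosomal RNA, -0.15 ± 0.0356 in water mice. Of 20 genes for RNA polymerase I and its factors 0 passed in antibiotic mice in edgeR, with 5 at an unadjusted p under 0.05, and 1 fell in water mice (Ubtf, which loads it on ribosomal DNA, -0.21 ± 0.048). Of 35 genes of mTORC1 and S6 kinase control 5 fell and 4 rose in antibiotic mice, and 5 fell and 2 rose in water mice. Lamtor4, of the complex that anchors mTORC1 at lysosomes, fell in antibiotic mice (-0.22 ± 0.0538) and in water mice (-0.26 ± 0.0529), and Tsc1, an inhibitor of the pathway, rose in antibiotic mice (0.27 ± 0.054). Of 13 genes for ribosome binding and quality control, 2 fell in antibiotic mice and 1 in water mice, Ccdc124 in both.

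Markers of other cells also differed between groups. With morphine, 6.62% of all genes tested were called lower and 6.43% higher in antibiotic mice. In water mice these shares were 2.67% and 3.91%. Of all genes tested, 9.58% were called lower and 8.42% higher in Abx_Morphine than in H2O_Morphine libraries. Between Abx_Saline and H2O_Saline libraries 1.41% were called in either direction. Of 10 markers of microglia 8 fell with morphine in antibiotic mice and 4 in water mice. Their summed level ran from 419 to 494 CPM in Abx_Morphine, 503 to 620 CPM in Abx_Saline, 558 to 625 CPM in H2O_Morphine and 654 to 700 CPM in H2O_Saline libraries. Mature oligodendrocyte markers fell at 2 of 10 in either comparison (1 rose in antibiotic mice), with a summed 4950 to 5663 CPM in Abx_Morphine, 4966 to 5762 CPM in Abx_Saline, 4961 to 5821 CPM in H2O_Morphine and 5816 to 6737 CPM in H2O_Saline libraries. Endothelial markers fell at 1 of 10 in antibiotic mice and 3 of 10 in water mice, with a summed 422 to 483 CPM in Abx_Morphine, 431 to 492 CPM in Abx_Saline, 411 to 463 CPM in H2O_Morphine and 461 to 538 CPM in H2O_Saline libraries. No other defining marker of these lists was at 0; the 6 haemoglobin genes of the erythrocyte list are listed at 0 in every group. Of 9 striatal projection neuron markers, which match the labelled tissue, 0 passed in either comparison in edgeR, with 0 at an unadjusted p under 0.05 in antibiotic mice and 1 in water mice. Yet with morphine all 9 had values below 0 in water mice (median log2 change -0.24), and 5 of 9 in antibiotic mice (median -0.02). Between Abx_Saline and H2O_Saline libraries all 9 were also below 0 (median -0.23), with 0 called. Their sum ran from 3931 to 4795 CPM in Abx_Morphine, 2590 to 5696 CPM in Abx_Saline, 3118 to 5169 CPM in H2O_Morphine and 4430 to 5992 CPM in H2O_Saline libraries. Of 10 cortical and septal neuron markers 0 were called. With morphine 9 were above 0 in water mice (median log2 change 0.35) and 5 in antibiotic mice (0.03). Between Abx_Saline and H2O_Saline libraries 9 were above 0 (0.71). Their sum ran from 252 to 1038 CPM in Abx_Morphine and 183 to 1562 CPM in Abx_Saline libraries. It ran from 89.4 to 1239 CPM in H2O_Morphine and 62.9 to 750 CPM in H2O_Saline libraries. Between Abx_Morphine and H2O_Morphine libraries, where 3 members were higher, 9 of 10 microglia, 5 of 10 oligodendrocyte, 3 of 10 astrocyte and 3 of 10 endothelial markers were lower, and 1 endothelial marker was higher. Between Abx_Saline and H2O_Saline libraries 8 of 10 oligodendrocyte, 7 of 10 microglia and 1 of 10 endothelial markers were lower. The part of these cells in the members' changes was not tested.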

How the data were processed

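Raw counts of reads per gene in the 22 libraries, as deposited by the authors, were the measurement. RNA was extracted with TRIzol and cDNA made with the SMARTer kit and sonicated, per the labels' protocols. Reads were aligned with STAR 2.4.0, and FastQC and edgeR were also used, per the submitters' processing notes. Genome build, annotation, counter and strand setting were not given in the sources used here. Overlapping or antisense genes may share reads. The table has 5 summary entries that were removed. Reads outside genes held 8.97 to 15.4% and reads that did not align uniquely 9.45 to 11.9% of a library's counts. The authors' normalised table was not used.

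Counts were analysed with edgeR 4.0.16 under R 4.3.3 (DESeq2 1.42.0 and limma 3.58.1 as alternatives): filterByExpr by group (14564 genes), TMM, a single 4-group robust quasi-likelihood fit and two-sided F-tests, with Benjamini-Hochberg adjusted p under 0.05 as the threshold. CPM are TMM-scaled, log2 CPM use a prior count of 2, and an SE is the log2 change over the square root of F. Transcript lengths came from GENCODE M21 for 95.4% of tested genes, and promoters from RefSeq. Members were picked by a rule for values by library, by group range or by group mean. The rule took the 3 with the smallest p in each direction and contrast, the extremes of level and spread, the stalk proteins, paralogs and Rps6. Rpl31 and Rpl38 were added after their values were seen. Some genes that the rule names are not reported here. Members and lists were chosen with earlier results of these data known. Labels give no batch. Correlations of same-numbered libraries ran from -0.48 to 0.35, over 4 or 5 pairs per comparison. So few pairs cannot show whether such libraries vary together, and numbers were not used as pairs. The steps were checked on simulated counts, and no pair of libraries within a group was a duplicate. Alternatives covered scaling, filter, test, samples in the fit, replicate block, length slope, member minimum and leaving out each library.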

Additional observations from a re-analysis of the deposited data

Results flagged for a closer look

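In 88 sets of values, each of 1 member or of the members' share in 1 group, a library far from the others of its group was looked for, and 6 were flagged, where chance flags about 1 group in 20. Rpl23a had 132 CPM in H2O_Morphine library 4, against 152 to 160 in the others. Rps14 had 267 CPM in Abx_Morphine library 1, against 240 to 246. Rps19bp1 had 16.7 CPM in H2O_Morphine library 4, against 17.97 to 18.5. Rps29 had 230 CPM in H2O_Saline library 5, against 202 to 211. Rpsa had 471 CPM in Abx_Morphine library 2, against 428 to 439. The members' share of gene counts was 1.74% in H2O_Saline library 4, against 1.52 to 1.59%.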

How the results depend on the processing

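Members called between H2O_Morphine and H2O_Saline libraries (17) became 11 without the low-count filter, 31 in DESeq2, 11 with only the 2 groups in the fit and 0 with the length slope as covariate, and ranged from 6 to 22 when a library was left out. Between Abx_Morphine and Abx_Saline libraries (10) they became 6 with only the 2 groups and 0 with the length slope, and ranged from 3 to 15. Between Abx_Morphine and H2O_Morphine libraries (3) they became 1 with only the 2 groups, and ranged from 0 to 3. Across the 4 groups (34) they became 1 with the length slope, and ranged from 24 to 40. With replicate number as a block, a number that the labels do not explain, the 3 counts were 5, 9 and 0. The median change of the members under the length slope was 0.00 in both morphine comparisons and 0.04 between Abx_Saline and H2O_Saline libraries. Rps27l, at -9.8e-05 to 0.0835 in water mice when a library was left out, changed sign without H2O_Saline library 6, as did Rpsa in the difference between morphine changes with the block (0.0074). The members' median between Abx_Saline and H2O_Saline libraries (-0.01) also turned positive without H2O_Saline library 4 or Abx_Saline library 5 or 6, reaching 0.01, and under the length slope all 3 of these medians were above 0. RLE size factors and TMM without the members moved the median of all genes by less than 0.1. The cause of these moves was not tested. Rps27l had the lowest level of the members (8.80 CPM), and the effect of sequencing depth was not tested.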
